A study of Rattus norvegicus with 12 samples.

Results

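The 10 genes followed here handle iron and heme, and were measured across cultured rat small hepatocytes and freshly isolated mature hepatocytes: Hamp, Tf, Tfrc, Tfr2, Slc40a1, Fth1, Ftl1, Cp, Hp and Hpx. They were taken by name, 10 of the 36172 gene names on the array, and were read by 15 probes, all of which were well above background on all 12 arrays. Small hepatocytes are progenitors of hepatocytes found in adult rat liver. The rats were of the F344 strain, described as positive for dipeptidylpeptidase IV, and their age is not given in the sources used here. On day 9 of primary culture, cells carrying CD44 at their surface were selected with magnetic beads and then kept on Matrigel, a basement membrane extract. Passage 2 cells spent 3 h on 1 of 3 coatings, which were laminin-511 (LN511), laminin-111 (LN111) and again Matrigel (Mat). The labels give 1 medium protocol for all 4 groups, a serum-free DMEM/F12 with 10 ng/mL EGF, 10 mM nicotinamide, dexamethasone and 0.5 mg/L of an insulin, transferrin and selenium supplement. Mature hepatocytes taken from fresh livers (MH) were the control, with no coating or culture named for them, so that culture, passage, sorting and cell type cannot be told apart in any comparison with MH. Each group had 3 arrays. Whether these were separate animals or cultures is not given, so p-values reflect the spread between samples alone, and that spread may be technical.

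Hepatocytes are the main source of the plasma proteins that carry iron and heme. Transferrin (Tf) carries ferric iron in plasma, transferrin receptor 1 (Tfrc) takes it into cells, and transferrin receptor 2 (Tfr2) acts in hepatocytes as part of an iron sensor that raises hepcidin. Hepcidin, the product of Hamp, is a liver hormone that binds ferroportin (Slc40a1), the iron exporter of cells, and has it degraded. The ferritin chains (Fth1, heavy; Ftl1, light) form the shell in which cells store iron. Ceruloplasmin (Cp) oxidises iron for loading onto transferrin, haptoglobin (Hp) binds free hemoglobin and hemopexin (Hpx) binds free heme. Iron regulatory proteins bind the mRNAs of several of these genes: they stabilise that of transferrin receptor 1, and block translation of ferritin and ferroportin, a step an RNA array does not read.

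Sequences are shown for Hamp, the hormone of the system, and for Cp, whose probes moved in opposite directions. Cp had 1 probe on each of a pair of distant stretches of the gene, at rn4 chr2:105129736-105130152 (plus strand, from base 2884, a span that includes an intron) and at chr2:105148774-105148833 (plus strand, from base 3449), with 18621 bases between them. Only the first 30 bases of the second Cp probe are printed. No base is capitalised in these probe sequences.

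Cp probe 1: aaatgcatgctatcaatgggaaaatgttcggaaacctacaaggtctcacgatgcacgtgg
Cp probe 2: ctttgcccctcaaaagctatattctaaatt

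The 250 bases before the Hamp start are shown because the results turn on this gene and because its control through BMP and IL-6 signals is well known. The sequence is RefSeq's on GRCr8, chr1:95300272-95300521, minus strand. Capitals mark GGCGCC, the core of BMP-responsive elements, and a match to TTCNNNGAA, the pattern bound by STAT factors.

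Hamp upstream: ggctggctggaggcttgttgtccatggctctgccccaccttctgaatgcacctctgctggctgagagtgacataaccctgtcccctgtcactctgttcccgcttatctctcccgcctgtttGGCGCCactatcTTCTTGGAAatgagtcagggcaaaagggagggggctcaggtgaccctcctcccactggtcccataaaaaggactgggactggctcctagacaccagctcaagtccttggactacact

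Of the 10 genes, 7 had an entry in the RefSeq promoter table. Searched on both strands of these 250 bases, GGCGCC stood in Hamp (129 to 124 bases before the start) and Tfrc (118 to 113 bases before it), against 8.69% of all 33469 promoters. TTCNNNGAA stood in Hamp alone among the 7 (117 to 109 bases before the start), against 7.67% of all promoters. The hypoxia response core ACGTG stood in Tfrc alone among them, against 16.6%. The loop letters of the iron-responsive element, CAGTGN on the transcribed strand, stood in 0 of the 7 windows of 50 bases after the start, against 7.26% of all. A match is a description of letters, not a site in use, and a lack of one says only that the letters are not in the window.

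On each array 58717 spots were no controls, of which 52.18% to 62.75% stood well above background and 0 were saturated. All levels below are log2 signals relative to the 75th percentile of the array, and no level is set against that of another probe. LN111 replicate 3 had 1126 spots with an outlier mark, against 350 to 499 on the other arrays. The median of 13 hepatocyte markers was 3.77, 3.19 and 3.70 on array 2 of LN111, LN511 and Mat, 3.63 on LN111 replicate 3, and 4.04 to 4.93 on the other 5 cultured arrays. It was 7.64 to 8.33 in MH. All 13 markers were tested, 12 were lower in cultured cells and 1 (Apoa1) was not called, and 12 or 13 of them were well above background on each cultured array. All 9 progenitor and biliary markers were higher in cultured cells, Cd44, the sort marker, among them. Alb, the albumin gene, was 7.59 to 8.75 in cultured cells and 9.33 to 9.69 in MH (difference -1.22 ± 0.17, SE, limma adjusted p = 8.24e-05), but -0.33 with unscaled signals and 0.13 after quantile scaling.

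**Figure D1:**
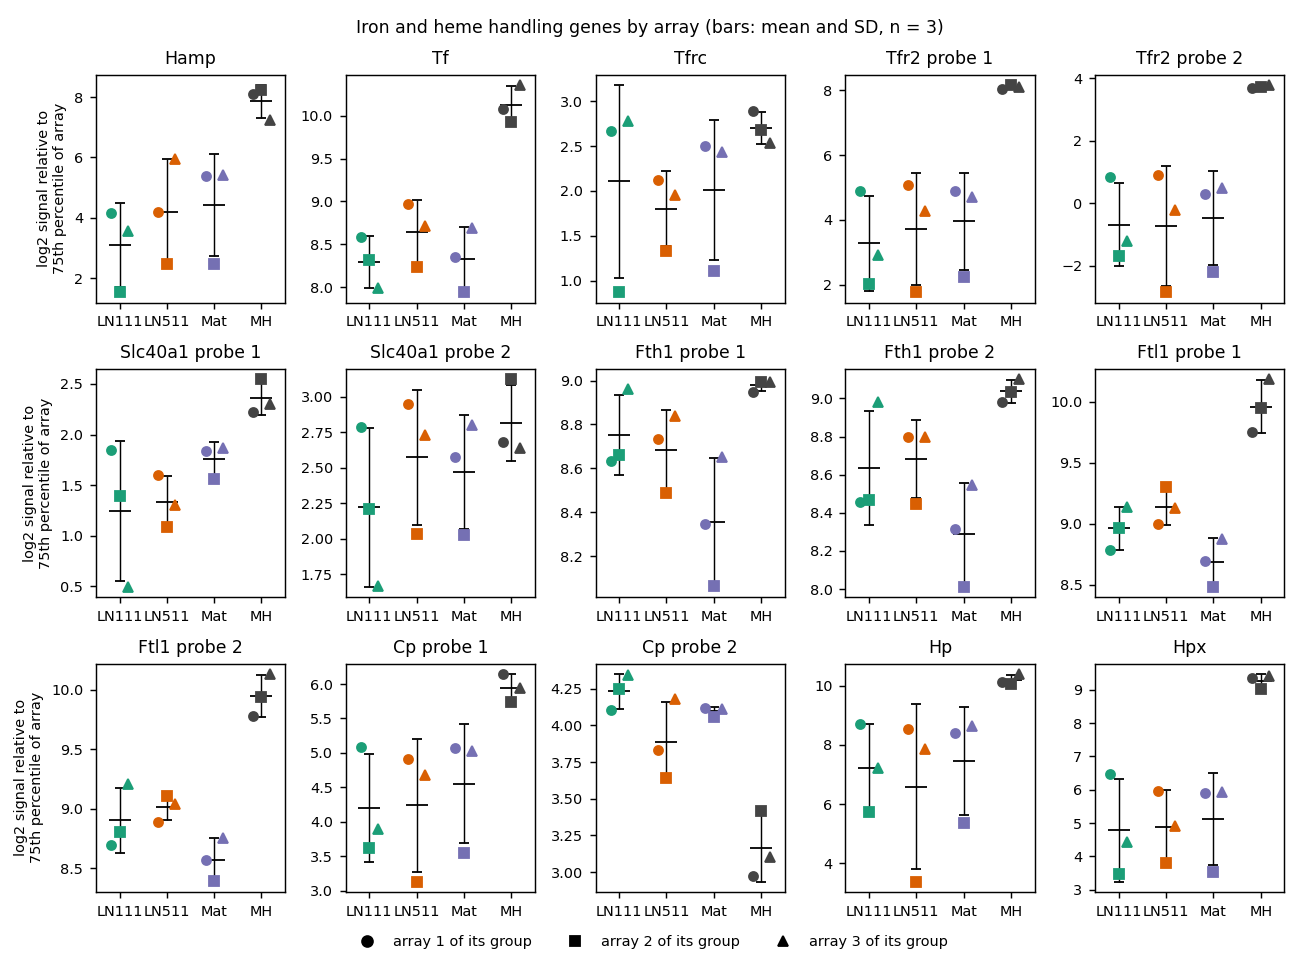
Level of each of the 15 probes on each array (log2 signal relative to the 75th percentile of the array; vertical axes differ between panels). Symbols are the arrays of each group, with bars for mean and SD (n = 3). Hamp, Tfr2, Hp and Hpx lie lower on all 9 cultured arrays than on the MH arrays, Cp probe 2 lies higher, and array 2 of each coating is low for Hamp, Tfrc, Tfr2, Cp probe 1, Hp and Hpx.

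The first comparison set the 9 cultured arrays (the mean of the 3 coatings) against MH. The fit treated these arrays as independent. Those numbered 1 and those numbered 2 shared deviations between coatings (correlations 0.61 to 0.82), so its errors and p-values may be too small. Hepcidin, both probes of transferrin receptor 2 and hemopexin fell and 1 ceruloplasmin probe rose under every setting run. Transferrin, haptoglobin and 1 probe each of ferroportin and ceruloplasmin were also called lower, each losing the call under at least 1 other setting. The 4 ferritin probes were called lower here and higher after quantile scaling. Of 15 member probes, 12 were lower and 1 higher at an adjusted p under 0.05. After quantile scaling 5 were lower and 5 higher, and with unscaled signals 5 were lower and 2 higher. The background was high: 36.7% of the 23656 probes tested were lower and 35.1% were higher under the same rule. With unscaled signals 78.5% of all calls were higher, against 48.9% here. The median of all probes shifted by 0.88 with unscaled signals, 0.19 after quantile scaling and -0.15 after normexp background correction, and changes under those settings are read against these shifts. The median difference over the 15 probes was -1.12, against -0.02 over all probes. In 11 of the 15, no cultured array overlapped the MH arrays. The share of all probes that separate in this way was not counted, so this is not read as a trait of the members.

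Hamp was at 4.18, 1.53 and 3.58 on the LN111 arrays, 4.19, 2.46 and 5.96 on LN511, 5.38, 2.48 and 5.42 on Mat, and 8.10, 8.24 and 7.24 in MH. The highest cultured array thus stayed below the lowest MH array, and array 2 was the lowest on each coating. The difference was -3.95 ± 0.85 (SE; 95% interval -5.84 to -2.07), a 15.5-fold lower signal, with a limma adjusted p of 0.00172. Without array 2 of each coating it was -3.08 ± 0.41 (adjusted p = 0.000343), an alternative chosen after seeing the data. Cultured Hamp levels spanned 21.4-fold from the lowest to the highest array, and MH levels 2.01-fold.

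Tfr2, the receptor of the iron sensor, was read by a probe at chr12:19655335-19655394 and by a second at chr12:19651125-19651185 (rn4), which shared no run of over 6 bases. The first was at 4.90, 2.03 and 2.91 on LN111, 5.09, 1.76 and 4.28 on LN511, 4.90, 2.24 and 4.72 on Mat, and 8.05, 8.17 and 8.09 in MH. Its groups did not overlap, and MH arrays lay within 0.12 of each other. The differences were -4.46 ± 0.81 (limma adjusted p = 0.000568) and -4.37 ± 0.83 (0.000776), or 21.95-fold and 20.6-fold lower. These were the largest falls among the 10 genes in this fit.

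Hpx (chr1:163319663-163319722), the heme carrier, was at 6.47, 3.46 and 4.42 on LN111, 5.97, 3.80 and 4.92 on LN511, 5.89, 3.52 and 5.93 on Mat, and 9.35, 9.03 and 9.42 in MH. No cultured array reached the MH range. The difference was -4.34 ± 0.70 (20.2-fold, limma adjusted p = 0.00025), and -3.66 ± 0.44 without array 2 of each coating.

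Hp (chr19:39443156-39443215), the hemoglobin-binding plasma protein, was at 8.70, 5.72 and 7.22 on LN111, 8.54, 3.39 and 7.86 on LN511, 8.41, 5.36 and 8.62 on Mat, and 10.11, 10.05 and 10.39 in MH. It had the widest spread of the 15 probes, 39.7-fold over the cultured arrays against 1.27-fold over MH. The difference was -3.09 ± 1.09 (8.54-fold, limma adjusted p = 0.0255). The call was lost when any MH array was left out (limma adjusted p for Hp, cultured against MH, of 0.0646, 0.063 and 0.0759 without MH 1, 2 and 3) with the slide as a block (0.079), after quantile scaling (-1.71, 0.194) and with unscaled signals (-2.20, 0.0521). Without array 2 of each coating, the difference was smaller and its error smaller still, -1.96 ± 0.33 (adjusted p = 0.00111).

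Tf (chr8:108219377-108219436), the plasma iron carrier, was at 8.59, 8.31 and 7.98 on LN111, 8.97, 8.24 and 8.72 on LN511, 8.35, 7.94 and 8.69 on Mat, and 10.08, 9.93 and 10.36 in MH. The cultured arrays lay close together and below all MH arrays. The difference was -1.70 ± 0.21 (3.25-fold, limma adjusted p = 3.36e-05), but -0.24 after quantile scaling, where it was not called (adjusted p = 0.296).

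**Figure D2:**
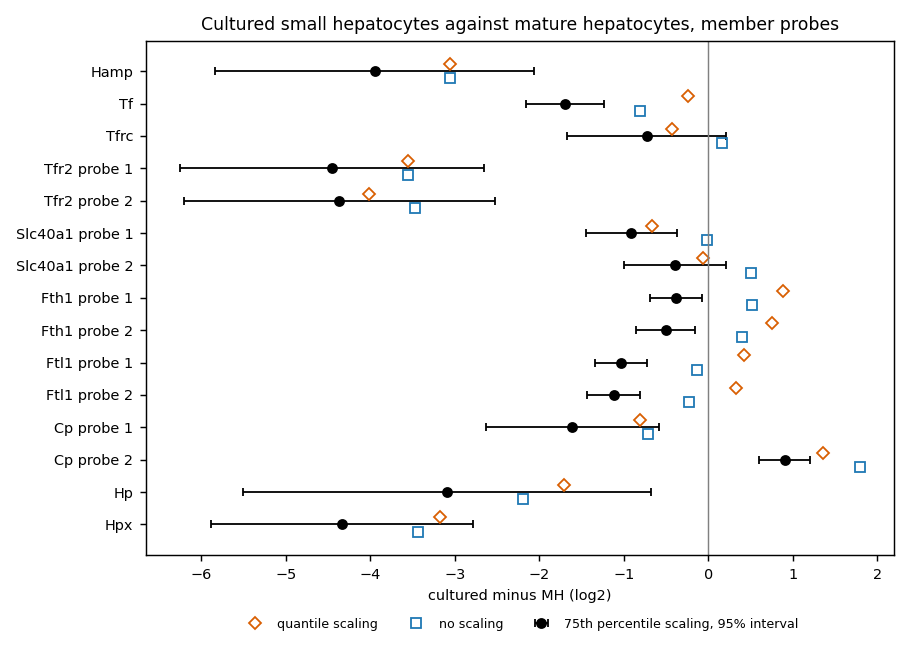
Difference between cultured cells and MH for each probe (log2), with the 95% interval of the fit scaled by the 75th percentile (filled circles). Open diamonds give the difference after quantile scaling and open squares that of unscaled signals. The 4 ferritin probes lie left of 0 under the first scaling and right of 0 after quantile scaling, while Hamp, Tfr2, Hp and Hpx stay left of -1.5 under all 3.

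Tfrc, the receptor that takes up transferrin-bound iron, was not called (chr11:69976628-69976687). It was at 2.67, 0.87 and 2.78 on LN111, 2.12, 1.33 and 1.96 on LN511, 2.50, 1.11 and 2.43 on Mat, and 2.89, 2.68 and 2.53 in MH. Array 2 was the lowest on each coating, and the other cultured arrays reached into the MH range. The difference was -0.73 ± 0.42 (95% interval -1.67 to 0.21, limma adjusted p = 0.146), -0.29 without array 2 of each coating, and 0.17 with unscaled signals. Tfrc is abundant in red cell precursors, and 3 of 5 erythroid marker probes tested were lower in cultured cells (summed linear signal 2.61 to 3.85, against 9.43 to 13.8 in MH), whose part was not tested. Tfrc and Tfr2, the receptor pair, thus had different results, but the difference between them was not tested.

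Slc40a1, the iron exporter, gave unequal results on its probes, which lay 588 bases apart (chr9:44977923-44977982 and chr9:44978571-44978630). On the first, cultured levels of 0.49 to 1.87 stayed below MH levels of 2.22 to 2.54, and the difference was -0.91 ± 0.24 (1.88-fold, limma adjusted p = 0.00623). On the second, cultured levels of 1.67 to 2.95 overlapped MH levels of 2.64 to 3.12, and the difference was -0.39 ± 0.27 (adjusted p = 0.215). With unscaled signals the first came to -0.02 and the second to 0.50, and with the slide as a block the first was not called (adjusted p = 0.0756). Slc40a1 is also high in liver macrophages, whose markers moved the same way: all 13 Kupffer cell and macrophage markers were lower in cultured cells, their summed linear signal was 165.1 to 187.9 in MH and 1.56 to 32.9 in cultured cells, and Cd5l, Marco, Timd4 and Adgre1 were well above background on no cultured array. Their part in the Slc40a1 result was not tested. In bulk RNA, fewer cells of a type and less RNA per cell cannot be told apart.

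Ferritin signals varied little between cultured arrays, under 2-fold on each of the 4 probes. Fth1 was at 8.06 to 8.96 on cultured arrays and 8.95 to 8.995 in MH by its first probe (chr1:212432641-212432701), and at 8.01 to 8.98 and 8.98 to 9.10 by its second (chr1:212432648-212432709). Ftl1 was at 8.48 to 9.30 on cultured arrays and 9.75 to 10.18 in MH by its first probe (chr1:95929253-95929312), and at 8.39 to 9.21 and 9.78 to 10.13 by its second. Thus only the Ftl1 groups were apart on both probes, and 1 cultured array (LN111 replicate 3) reached the MH range for Fth1. The differences were -0.38 ± 0.14 and -0.50 ± 0.16 for Fth1 (limma adjusted p = 0.0313 and 0.0146) and -1.03 ± 0.14 and -1.12 ± 0.14 for Ftl1 (6.09e-05 and 3.94e-05). All 4 turned after quantile scaling, to 0.89 and 0.76 for Fth1 and 0.42 and 0.33 for Ftl1, and with unscaled signals Fth1 was at 0.52 and 0.40 while Ftl1 was at -0.14 and -0.22, so the direction of ferritin was not settled by these arrays. Fth1 probe 1 also lost its call when any MH array, LN511 replicate 2 or Mat replicate 1 was left out (adjusted p = 0.0505 to 0.0838) or array 2 of each coating (0.0893), and Fth1 probe 2 without MH replicate 3 (0.0549).

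The probes of each ferritin gene are not independent readings. The Ftl1 probes shared a run of 53 bases, and a further probe of the array, named LOC100360087, shared 48 and 53 bases with them. The file places the second Ftl1 probe on another chromosome than the first (chr13:86733054-86733113), so reads of near-identical copies of this gene cannot be told apart here. The Fth1 probes overlap by their coordinates and shared a run of 19 bases. No other probe of the array shared a run of 20 bases or more with a member probe.

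Ceruloplasmin gave opposite directions on its probes. Probe 1 was at 5.08, 3.61 and 3.89 on LN111, 4.91, 3.13 and 4.67 on LN511, 5.08, 3.55 and 5.02 on Mat, and 6.15, 5.73 and 5.94 in MH, lower on every cultured array. Probe 2 was at 4.11, 4.24 and 4.34 on LN111, 3.83, 3.64 and 4.18 on LN511, 4.12, 4.06 and 4.11 on Mat, and 2.97, 3.42 and 3.11 in MH, higher on every cultured array. The differences were -1.61 ± 0.46 (3.05-fold lower, limma adjusted p = 0.00917) and 0.90 ± 0.14 (1.87-fold higher, adjusted p = 0.000161).

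The fall of probe 1 was not called after quantile scaling (-0.81, adjusted p = 0.153) or with unscaled signals (-0.71, 0.158), whereas probe 2 stayed higher under both, at 1.36 and 1.80. Cultured levels spanned 3.87-fold on probe 1 and 1.62-fold on probe 2. Rat ceruloplasmin is made as a secreted plasma protein and, in other cells, as a form anchored to the membrane, from transcripts that differ at their 3′ end. The array annotation lists RefSeq transcript variant 2 for both probes and the other RefSeq mRNA of Cp for probe 1, but it stops at 4 accessions a probe, so which form each probe reads cannot be said from it.

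The arrays lay on 2 slides, with MH and Mat replicates 1 and 2 on slide 1 and LN111, LN511 and Mat replicate 3 on slide 2. Only Mat had arrays on both, so a slide block rests on Mat replicate 3 against Mat replicates 1 and 2. Under it, a slide effect and a difference between these arrays cannot be told apart. With the slide as a block, 11 of 15 member probes were called for cultured cells against MH, beside 12326 of 23656 over the whole array. The member calls lost were Slc40a1 probe 1 and Hp. Within slide 1, Mat against MH gave -3.93 ± 0.89 for Hamp, -4.53 ± 0.77 for Tfr2 probe 1, -4.56 ± 0.69 for Hpx, -3.30 ± 0.88 for Hp and -1.98 ± 0.22 for Tf (limma adjusted p = 0.013, 0.00479, 0.00335, 0.0227 and 0.00127). There, Cp was at -1.62 ± 0.47 and 0.92 ± 0.20 on its probes (0.0297 and 0.0105), and 13 of 15 member probes were called, beside 14478 of 23674 over the whole array. For Mat against MH over all arrays the values were -3.43 for Hamp, -4.15 for Tfr2 probe 1, -4.15 for Hpx and -1.79 for Tf, each smaller in size than within the slide. The fit within the slide leaves out Mat replicate 3. Mat replicate 2, the lowest Mat array for these probes, thus weighs more in it, and the part of the slide was not tested.

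Each coating alone was also set against MH. In LN111, 10 of 15 probes were called, against 65.5% of all probes. In LN511 it was 11, against 67%, and in Mat 11, against 66%. These counts lie near the background and share the MH arrays, so they are given side by side only. Hamp was at -4.76 ± 1.04, -3.66 ± 1.04 and -3.43 ± 1.04 (LN111, LN511 and Mat, limma adjusted p = 0.00223, 0.0098 and 0.0139), and Hpx at -4.48, -4.37 and -4.15 ± 0.86 (0.00097, 0.00111 and 0.00159). Hp was called in LN511 (-3.59 ± 1.33, 0.0347) but not in LN111 (-2.97, 0.072) or Mat (-2.72, 0.0949). Without LN511 replicate 2, which held the lowest Hp level, Hp in LN511 came to -1.98 and was not called (0.119), while LN111 and Mat were called (0.0173 and 0.0257). Hp in LN511 was also lost without each MH array (0.0682 to 0.0805), and Hp in LN111 was called without LN111 replicate 1 (0.0498).

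Cp probe 1 was at -1.74, -1.70 and -1.39 ± 0.56 (LN111, LN511 and Mat, limma adjusted p = 0.0191, 0.021 and 0.04999). These calls were weak. In LN111 the call was lost without LN111 replicate 2 or 3 or MH replicate 1 (0.0552 to 0.0693), and in LN511 without LN511 replicate 2 or MH replicate 1 (0.0816 and 0.0594). In Mat it was lost without Mat replicate 2 (-0.89, 0.19), Mat replicate 3, LN111 replicates 2 or 3, LN511 replicate 3 or any MH array (0.0519 to 0.118). Hamp in Mat was lost without Mat replicate 2 (-2.46, 0.0549). Slc40a1 probe 1 was called in Mat without LN111 replicate 3 (-0.60, 0.0174) and lost in LN511 without array 2 of each coating (-0.90, 0.0618), where Tfrc in LN511 was called (-0.66, 0.00917). Without LN111 replicate 1, Slc40a1 probe 2 was called in LN111 (-0.88, 0.0425), and without LN111 replicate 3, Fth1 probe 2 was (-0.58, 0.0194).

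On 7 member probes the level was lower on array 2 of all 3 coatings than on any other cultured array: Hamp, Tfrc, both Tfr2 probes, Cp probe 1, Hp and Hpx. Hamp was 1.53 to 2.48 on these arrays and 3.58 to 5.96 on the other 6, and Hp was 3.39 to 5.72 and 7.22 to 8.70. The ferritins, Tf, Slc40a1 and Cp probe 2 did not separate in this way. The pattern was not particular to the members. Over 15763 probes well above background on every array, deviations from group means on the arrays numbered 2 were correlated between coatings (0.61 to 0.82). The share of all probes that separate as the 7 did was not counted. The hepatocyte marker median was also low there, and as low on LN111 replicate 3. That array was the lowest of the other 6 for Hamp (3.58), Tfr2 (2.91 and -1.20), Cp probe 1 (3.89), Hp (7.22) and Hpx (4.42). For Tfrc it was the highest (2.78). Pearson correlations with the marker median over the 9 cultured arrays were 0.90 and 0.93 for Tfr2 and 0.93 for Cp probe 1. They were 0.89 for Hp, 0.90 for Hpx and 0.62 for both Hamp and Tfrc. Whether these arrays share a preparation of cells is not given in the labels, and the part of the hepatocyte markers in these levels was not tested.

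**Figure D3:**
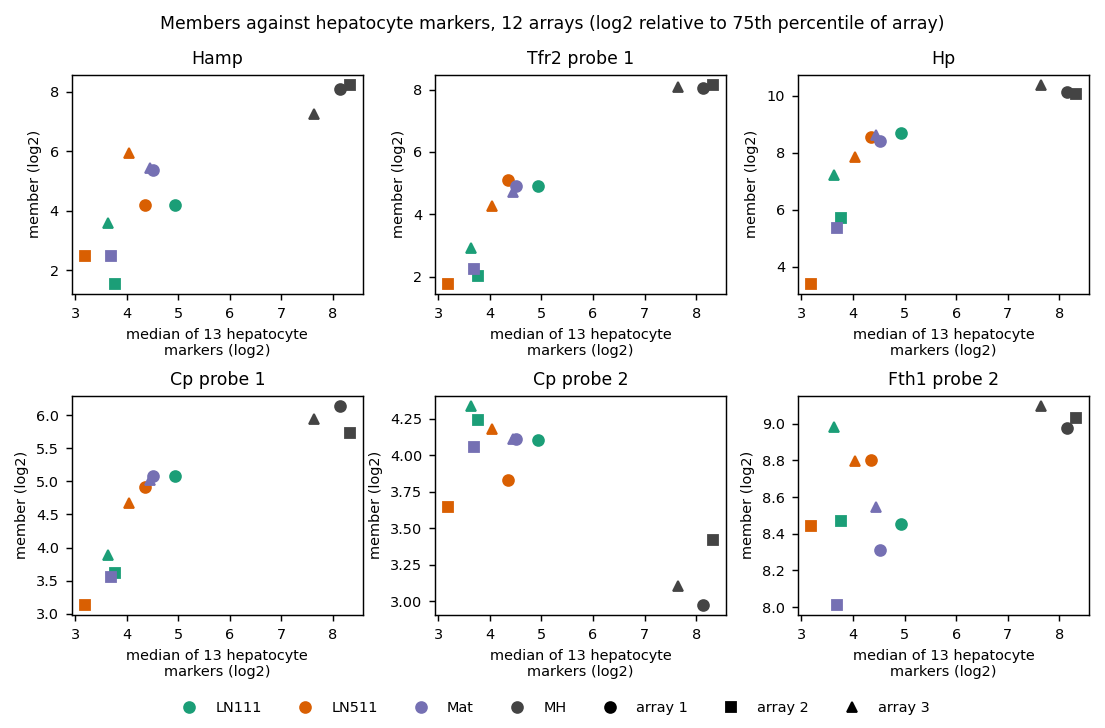
Level of 6 member probes (log2, vertical) against the median of 13 hepatocyte markers (log2, horizontal) on the 12 arrays, coloured by group with symbols for the array number. Hamp, Tfr2 probe 1, Hp and Cp probe 1 are lowest on the cultured arrays numbered 2, where the markers are at 3.19 to 3.77, while Cp probe 2 and Fth1 probe 2 do not order the cultured arrays in that way.

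The second set of comparisons asked whether the coating changed these genes. No member probe passed in any of the 3: 0 of 15 for LN111 against Mat (0% of 22345 probes over the whole array), 0 of 15 for LN511 against Mat (6.07%) and 0 of 15 for LN111 against LN511 (15.4%), by limma at an adjusted p under 0.05. At an unadjusted p under 0.05 the counts were 0, 2 and 0, and over all probes 2745, 4485 and 6888 reached that level. The 2 were the Ftl1 probes, 0.46 ± 0.16 and 0.44 ± 0.17 higher on LN511 than on Mat (limma adjusted p = 0.152 and 0.196). With the replicate number as a block, which pairs LN511 with Mat arrays, members remained at 0 called while the whole array went from 1356 to 2355 probes.

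The intervals show what these comparisons could have missed. Hamp differed by -1.33 between LN111 and Mat (95% interval -3.96 to 1.30), by -0.22 between LN511 and Mat (-2.85 to 2.41) and by -1.11 between LN111 and LN511 (-3.74 to 1.52), so that differences of several fold in either direction could not be detected. Tf was bounded more closely, at -0.65 to 0.58, -0.30 to 0.93 and -0.96 to 0.27. Cp probe 2 was the most closely bounded, at -0.22 to 0.50, -0.57 to 0.15 and -0.02 to 0.71. For Hp the interval of LN511 against Mat ran from -4.30 to 2.57. Without array 2 of each coating, Tfrc was 0.69 higher on LN111 than on LN511 (limma adjusted p = 0.0455), and no other member passed in a coating comparison.

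**Figure D4:**
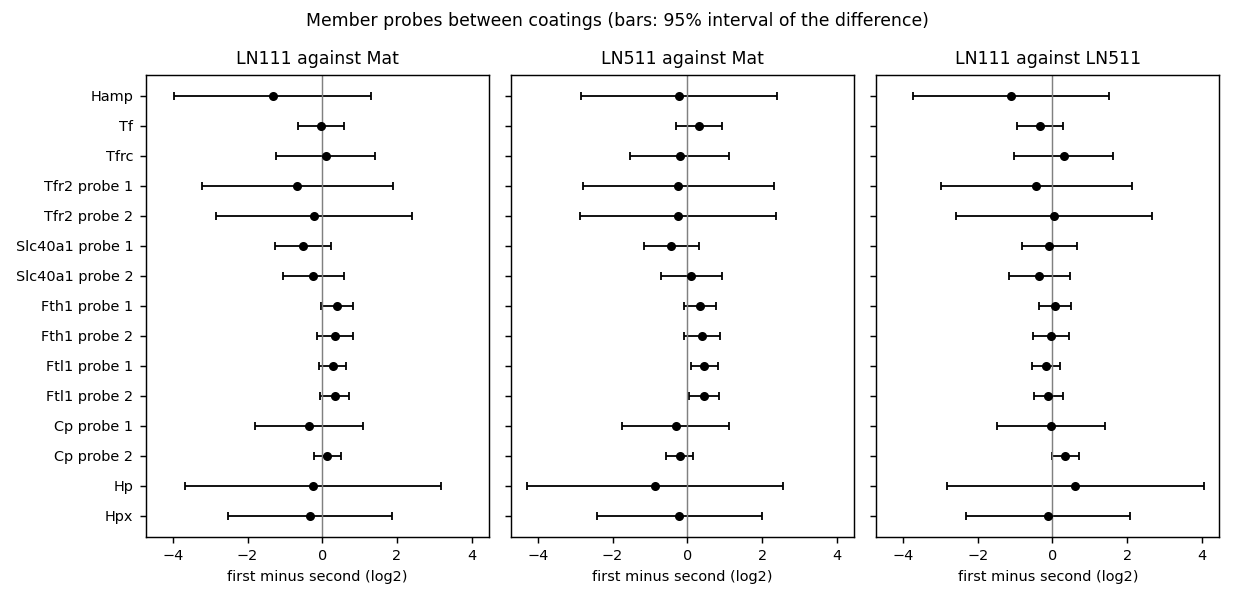
Difference of each member probe between coatings (log2, first named minus second), with the 95% interval of the difference. All 45 intervals but those of the Ftl1 probes for LN511 against Mat include 0, and those of Hamp, Tfr2, Hp and Hpx are the widest.

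The other genes of the pathway were taken from 4 lists of 70 genes, of which 65 were tested by their probe of highest mean signal. Of these, 37 were lower and 15 higher in cultured cells than in MH, against 37.5% lower and 34.7% higher among all 19099 genes tested in that way. The median difference was -0.77, against -0.04 over all genes. The split moved with scaling: 32 were lower and 21 higher after quantile scaling, and 25 lower and 27 higher with unscaled signals. The whole array moved as well. Of its 23656 tested probes, 7678 were lower and 9860 higher after quantile scaling, and 3758 lower and 13740 higher with unscaled signals. Lower genes were thus a larger share of the lists than lower probes were of the array under both settings.

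Genes of iron uptake, export and systemic control were mixed: 8 of 25 tested were higher and 9 lower, against 10 and 7 after quantile scaling and 15 and 6 with unscaled signals. Genes that set hepcidin in hepatocytes were among those lower. Hjv, the BMP co-receptor hemojuvelin, was at -5.31 to -0.65 on cultured arrays (well above background on 6 of 9) and 3.24 to 3.46 in MH, a difference of -6.39 ± 0.97 (limma adjusted p = 0.000167). Hfe, a partner of the transferrin receptors, differed by -3.18 ± 0.21 (3.55e-07), and Tmprss6, the protease that cleaves hemojuvelin, by -2.57 ± 0.30 (2.7e-05). Slc39a8, a metal importer, differed by -2.94 ± 0.28 (5.12e-06). The cultured arrays did not overlap the MH arrays in any of these 4 genes, and the share of all genes that separate so was not counted.

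Among BMP ligands and targets, Id1 and 2 ligands were called higher, the ligands only without the slide as a block. Id1, a target of BMP signalling, was at 0.44 to 2.29 on cultured arrays and -2.62 to -1.33 in MH, 3.44 ± 0.31 higher (limma adjusted p = 3.54e-06). Bmp6, the BMP ligand best known for driving hepcidin, was 3.02 ± 0.77 higher (0.00496), but only 1 of 3 MH arrays was well above background. The highest MH array (-0.93) lay within the cultured range of -2.47 to 1.70. The size of this difference thus rests on dim MH signals, and it was 0.97 after normexp background correction (limma adjusted p = 0.0109). The Bmp6 call was lost with the slide as a block (0.156). In liver this ligand comes largely from sinusoidal endothelial cells, of whose 8 markers 7 were lower in cultured cells (summed linear signal 0.614 to 17.4, against 48.6 to 56.7 in MH). Bmp2, a further BMP ligand named after its values were seen, was 1.78 higher (0.00215), also lost with the slide as a block (0.181). Smad7, an inhibitor of the same pathway, was not called (0.21 ± 0.26, adjusted p = 0.491) and was called 1.10 higher with unscaled signals. Thus Hamp, Hjv, Hfe and Tfr2 fell, as did Tmprss6, which cleaves hemojuvelin, while Id1 rose in the same comparison.

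Lcn2, a siderophore-binding protein, was well above background on all 9 cultured arrays (2.35 to 4.06) and on no MH array, at least 142.6-fold higher (limma adjusted p = 7.87e-09). For this bound, each MH array was given its own probe signal or the dimmest detected signal of that array, whichever was higher. Erfe, which encodes erythroferrone, a hormone known for lowering hepcidin, was likewise on in all 9 cultured arrays (2.30 to 5.59) and no MH array, at least 217.9-fold higher (2.14e-07); it was named after its values were seen. Slc11a2 and Slc39a14, importers of iron not bound to transferrin, were not called (-0.08 ± 0.31 and -0.52 ± 0.54, adjusted p = 0.828 and 0.4). With unscaled signals they came to 0.82 and 0.37, and Slc11a2 was then called.

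Of 16 intracellular iron control genes tested, 10 were lower and 2 higher. Aco1 and Ireb2, the iron regulatory proteins, differed by -1.88 ± 0.15 and -1.28 ± 0.15 (limma adjusted p = 1.44e-06 and 1.92e-05), the latter not called with unscaled signals (-0.39, 0.191). Fbxl5, which targets iron regulatory protein 2 for degradation, was 1.03 ± 0.13 higher (5.34e-05). The other genes named here by size were of iron-sulfur cluster assembly, with Glrx5 at -2.49 ± 0.11 and Nfs1 at -2.04 ± 0.13 (2.54e-08 and 2e-07). The second Glrx5 probe went the other way: it was well above background on 10 of 12 arrays, at -2.53 to -1.29 on cultured arrays and -3.36 to -2.10 in MH, which overlap, and was 0.75 ± 0.25 higher (limma adjusted p = 0.0201). The split of this list moved with scaling: 5 were higher and 8 lower after quantile scaling, and 6 and 5 with unscaled signals.

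Heme synthesis had the most uniform result of the 4 lists: all 9 genes tested were lower, with a median difference of -1.92. Alas1, the rate-limiting enzyme in liver, was at 4.35 to 5.44 on cultured arrays and 7.67 to 8.79 in MH, a difference of -3.44 ± 0.28 (limma adjusted p = 1.77e-06). Alad, the next enzyme, differed by -3.76 ± 0.16 (1.51e-08), Fech, which inserts iron into protoporphyrin, by -2.91 ± 0.17 (1.61e-07), and Ppox by -2.34 ± 0.16 (4.71e-07). All 9 stayed lower after quantile scaling and 8 with unscaled signals. Alas2, the erythroid enzyme, did not pass the filter on dim probes.

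Of 15 genes of heme breakdown, transport and scavenging, 5 were higher and 9 lower, against 6 and 8 after quantile scaling and 6 and 6 with unscaled signals. Hmox1, the inducible heme oxygenase, was at 3.60 to 5.22 on cultured arrays and 0.96 to 1.38 in MH, 3.21 ± 0.29 higher (limma adjusted p = 3.98e-06). Blvrb, a biliverdin reductase, differed by -3.49 ± 0.16 (3.12e-08), Hebp1, a heme-binding protein, by -2.62 ± 0.12 (2.66e-08), and Ambp, whose product includes the heme scavenger alpha-1-microglobulin, by -5.34 ± 1.23 (0.00263). Ambp was also low on array 2 of each coating (3.06, 1.26 and 2.59 on LN111, LN511 and Mat). Cd163, the macrophage receptor for hemoglobin with haptoglobin, was well above background on 1 of 9 cultured arrays and on all MH arrays (1.33 to 1.46) and was called lower (0.000127). With 8 cultured arrays at background, the size of its difference is not given. It moved with the Kupffer cell markers above, of which it is one.

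**Figure D5:**
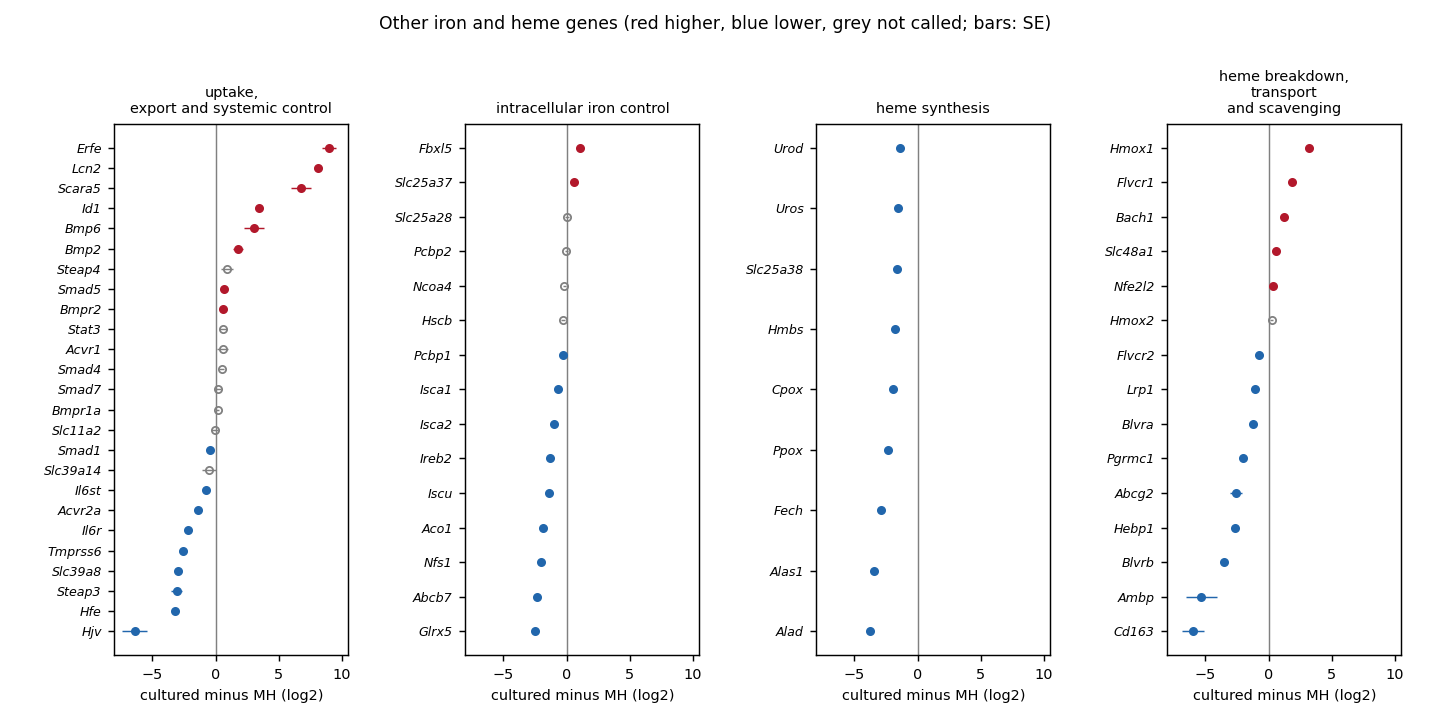
Difference between cultured cells and MH (log2, bars for SE) for 64 of the 65 tested genes of the 4 lists, by the probe of highest mean signal. Red is higher, blue lower and open grey not called at an adjusted p of 0.05. All 9 heme synthesis genes lie left of 0, while the uptake and control list runs from Hjv at -6.39 to Lcn2 and Erfe, whose points rest on MH signals not well above background, as that of Cd163 rests on cultured signals at background on 8 of 9 arrays.

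Between coatings, 0 of 61 tested list genes were called for LN111 against Mat (limma, with 0 of the whole array called) and 0 for LN511 against Mat. With the replicate number as a block, Scara5, Slc39a14 and Slc25a37 were lower on LN511 than on Mat (-2.66 ± 0.52, -1.11 ± 0.24 and -0.75 ± 0.18, limma adjusted p = 0.0255, 0.0352 and 0.0438). For LN111 against LN511, 6 of 61 were called, all higher on LN111, against 15.4% of all probes. Bmp6 was at 0.11 to 1.70 on LN111 and -2.47 to -1.63 on LN511 (2.90 ± 0.43, 0.00535), and Lrp1, a receptor for heme bound to hemopexin, at 1.31 to 2.45 and -0.43 to -0.22 (2.01 ± 0.30, 0.00535). Fbxl5 was at 1.53 to 2.04 and 0.61 to 0.70 (1.17 ± 0.15, 0.00414).

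The other 3 were Scara5, a ferritin receptor (3.82 ± 0.99, limma adjusted p = 0.0369), Blvra, a biliverdin reductase (0.70 ± 0.16, 0.0227), and Hebp1 (0.53 ± 0.14, 0.039). Stellate cell and fibroblast markers moved with this comparison: the summed linear signal of the 8 markers was 250 to 421.6 on LN111, 10.2 to 50.3 on LN511, 89.4 to 156.5 on Mat and 12.3 to 17.8 in MH. Their part in these differences was not tested.

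The genes most like the members across the 9 cultured arrays were ranked by Pearson correlation of log2 levels, as a description with no test. For Hamp they were Tff3, Tmem41b and Cyp2c23 (0.97, 0.96 and 0.94). For Tfrc they were Tyro3, Errfi1 and Slco4a1 (0.98, 0.98 and 0.97). For Slc40a1, by its probe of higher mean signal, they were Atp7b, C4bpa and Iba57 (0.97, 0.97 and 0.96).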

How the data were processed

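RNA of 12 samples was labelled with Cy3, per the labels' protocols, and scanned signals came from Agilent Feature Extraction, whose version was 10.7 in the submitters' processing notes. The deposited processed signal is a linear intensity, with spatial and multiplicative detrending per the file headers. The deposited value table holds the same intensity unscaled, with column medians of 23.6 to 90.9, within 0.0072 (log2) of the scanner files. The log2 of this deposited intensity minus each array's 75th percentile was used, without control and outlier-marked spots, which kept 45489 probes. A probe was tested if well above background on all 3 arrays of a group. Tests used limma 3.58.1 in R 4.3.3 with Benjamini-Hochberg adjustment over all probes tested, on 12 arrays for MH comparisons and on 9 for coatings. The number of arrays limits the precision. The fit was tested on simulated data with independent arrays, which cannot show how deviations shared by arrays of equal number affect the calls. Members, lists and the naming rule (every member probe, the 4 largest called differences a list on probes well above background on every array, 16 set genes; 1 gene it picked is not reported here) were chosen with earlier results of these data known. Alternatives changed background correction, scaling, filters, probes per gene, blocks and arrays. Replicate numbers paired LN511 with Mat by their deviations from group means (correlations 0.20 to 0.82). LN111 was correlated with both for numbers 1 and 2 (0.61 to 0.77), but hardly for number 3 (0.08 with LN511 and 0.06 with Mat). No coating paired with MH (-0.025 to 0.10).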

Additional observations from a re-analysis of the deposited data

How the results depend on the processing

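Of 1315 values of single member probes against MH under other settings, 1202 kept their call and its direction or stayed uncalled, 72 lost the call, 16 gained it and 25 turned. Of 885 values between coatings, 881 stayed uncalled, 3 gained a call and 1 turned. Differences called under neither setting changed sign in 15 and 106 of these. Hamp, Tfr2, Hpx and Cp probe 2 stayed called for cultured cells against MH under every alternative run. The ferritins turned with scaling, and the cause was not tested. After quantile scaling, Fth1 probe 1, Fth1 probe 2, Ftl1 probe 1 and Ftl1 probe 2 came to 0.89, 0.76, 0.42 and 0.33 (cultured against MH), 0.99, 0.82, 0.41 and 0.37 (LN111), 0.78, 0.71, 0.35 and 0.25 (LN511) and 0.89, 0.74, 0.50 and 0.36 (Mat). With unscaled signals, Fth1 came to 0.52 and 0.40 (cultured), 0.59 (LN111, probe 1), and 0.80 and 0.67 (Mat). Against MH, Mat then also gave 0.14 and 0.04 for Ftl1, 1.07 for Slc40a1 probe 2 and 0.032 for Cp probe 1, and Fth1 probe 1 came to -0.64 for LN511 against Mat.

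Members called against MH numbered 7 of 15 with unscaled signals for cultured cells, 7 for LN511 and 7 for Mat. With 1 probe for each of the 10 genes, 8 were called for cultured cells, 6 for LN111, 7 for LN511 and 6 for Mat. With the slide as a block, 6 of 15 were called for LN511, beside 10320 of 23656 probes. Leaving out 1 array gave 10 to 13 members for cultured cells, 9 to 12 for LN111, 9 to 11 for LN511 and 9 to 12 for Mat. Over all probes the same fits gave 15870 to 17423, 14609 to 15363, 14673 to 16428 and 14057 to 16172 calls.

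Over all probes, requiring detection on every array gave 11034 calls (cultured), 10092 (LN111), 10253 (LN511) and 10243 (Mat), fewer probes being tested. No filter gave 26211 (cultured) and 27409 (Mat), and the slide block 9816 (LN111) and 10320 (LN511). Between LN111 and Mat, unscaled signals gave 1 and leaving out 1 array 0 to 14. Between LN511 and Mat, normexp gave 2043, unscaled signals 13293 (with 3 members), detection on every array 611, the slide block 55, leaving out 1 array 554 to 1615 and leaving out array 2 of each coating 703. Between LN111 and LN511, detection on every array gave 2236, leaving out 1 array 2020 to 4540, and leaving out array 2 of each coating 1 member, Tfrc.

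The replicate number as a block gave 2355 probes for LN511 against Mat. For LN111 against LN511 the block gave 5290 probes and 16 pathway genes. By the check, the arrays of these coatings numbered 1 and 2 were correlated (0.61 and 0.61), and those numbered 3 hardly were (0.08). For cultured cells against MH, 14 members were called with the block, Tfrc being the one gained (limma adjusted p = 0.0416). The count over all probes under that setting is not given here.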
